A study of Mus musculus with 12 samples.

Results

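The mouse Toll-like receptor genes Tlr1, Tlr2, Tlr3, Tlr4, Tlr6, Tlr7, Tlr8, Tlr9 and Tlr13 and the co-receptor gene Cd14 were followed in RNA sequencing of whole proximal thoracic aorta. The 10 genes were chosen by name, as receptors and their co-receptor, and all 10 were found by symbol among the 30130 genes of the table. The aneurysm group, cPTAA, held 7 libraries (numbered 2, 3, 4, 6, 7, 9 and 12) of chronic proximal thoracic aortic aneurysms. These mice had elastase, a protease that degrades elastic fibres, applied around the aorta, together with BAPN, an inhibitor of the lysyl oxidases that cross-link elastin and collagen. The sham group held 5 libraries (1, 5, 8, 10 and 11) of proximal thoracic aorta after sham surgery and normal water. All animals were male and of the strain that the labels spell C56BL/6J, and the labels give no age. The enzyme and the inhibitor differ together between the groups, so that their parts cannot be told apart. The numbers come from the sample titles, which name no animals, so p-values measure only the spread between these samples.

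Toll-like receptors sense molecules of microbes and of damaged cells. Tlr2 pairs with Tlr1 or Tlr6 at the cell surface to bind lipopeptides, and Tlr4, with the binding protein Ly96, senses lipopolysaccharide that Cd14 hands over. Tlr3, Tlr7, Tlr8, Tlr9 and Tlr13 read nucleic acids inside endosomes. The receptors signal through the adaptors Myd88 and Ticam1 to NF-kB and interferon regulatory factors, and in arteries they are known from macrophages, endothelial cells and smooth muscle cells.

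Recovered depth ranged from 14078885 to 17493428 reads per library, and libraries of a group differed by more than sampling noise in every pair (chi-square per degree of freedom of at least 20.53). Smooth muscle markers summed to between 65062 and 256186 normalised reads in cPTAA and between 204063 and 281507 in sham, so the labelled vessel tissue was present in every library. Some libraries stood apart. cPTAA 6, 7 and 9 held cardiomyocyte genes at sums of 18381, 23468 and 119900, against 1252 to 6964 in the other libraries. Sham 8 was the highest library for 8 of 8 airway and lung epithelium genes, a list chosen after the values were seen, with a sum of 61132. That sum was 5530 in sham 11, at most 57.5 in the other sham libraries and 22.2 to 669 in cPTAA. Brown adipocyte genes fell in cPTAA (7 of 7), with sums of 1284 to 44124 against 31209 to 99774. Results that rest on these libraries are given with and without them.

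Of the 10 genes, 9 rose in the aneurysms and 0 fell, where 12.9% of all 21415 tested genes rose and 11.1% fell. All 10 were tested. The rises were largest in Tlr1 and Tlr13, at 4.02 ± 0.51 and 3.85 ± 0.41 on the log2 scale (± SE), and smallest in Tlr3, at 0.70 ± 0.21. Tlr4, the lipopolysaccharide receptor, was the gene that did not pass the test, with a log2 difference of 0.31 ± 0.20. The median log2 fold change of the 10 genes was 1.88, beside -0.05 over all tested genes. For 6 of them (Tlr1, Tlr2, Tlr6, Tlr7, Tlr9 and Tlr13) every cPTAA library lay above every sham library, which held for 8.02% of all tested genes. No gene of the list had an unadjusted p under 0.05 in the downward direction, and the count of rises was 9 by edgeR's quasi-likelihood test and 9 by DESeq2, with 0 falls by either. Without cPTAA 6, 7 and 9 and sham 8, 10 of the 10 rose. In that fit rises were also more frequent over all genes, at 3481 of 19734 tested. In bulk tissue more cells of a type and more RNA per cell cannot be told apart. Scaling by library totals alone moved the split over all genes from 2754 rises and 2374 falls to 3351 and 1832, and the count for the 10 genes was then also 9.

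**Figure D1:**
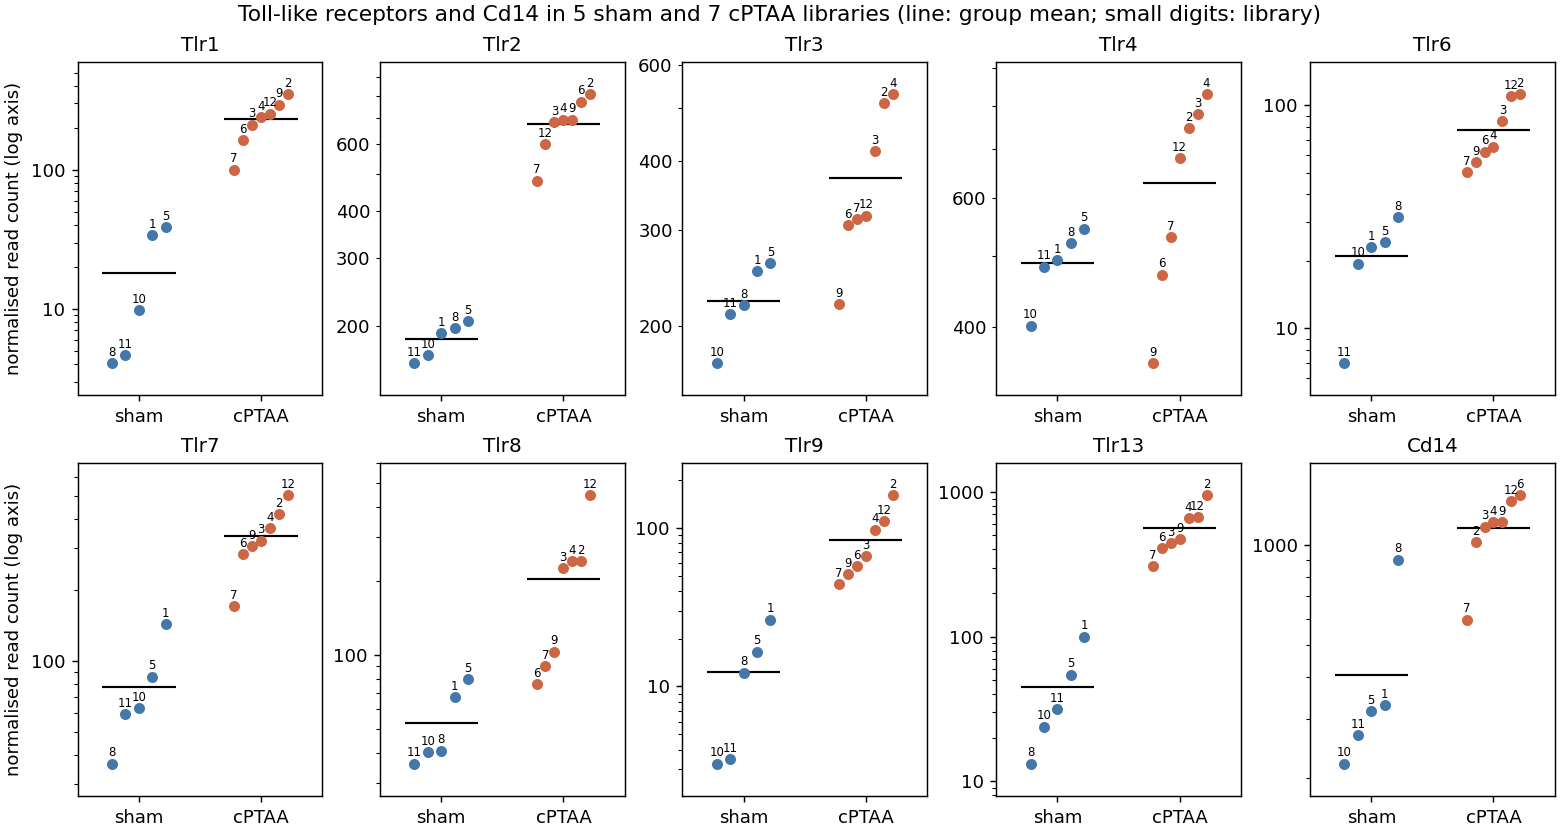
Normalised read counts of the 9 Toll-like receptors and Cd14 (log axis, 1 panel per gene with its own scale) in 5 sham and 7 cPTAA libraries. Points are libraries labelled by number and lines are group means. The Tlr1 values run from 4.07 to 39.0 in sham and from 100.4 to 349 in cPTAA, while those of Tlr4 overlap.

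Promoters are shown as a description of genes that mostly rose and that differ in how far they rose. Any part of these letters in the rises was not tested. The windows are RefSeq's on the build GRCm38.p6, from 250 bases before to 50 after a transcription start, and they are read 5′ to 3′ on the gene's strand. Of the 9 receptor genes, 7 were matched, with 9 windows in all, and Tlr4 and Tlr7 were not matched. Capitals mark matches to the core letters GAGGAA of PU.1, a transcription factor of myeloid cells, to TGANTCA of AP-1 and to a consensus of NF-kB, on either strand. Tlr1 and Tlr13 had the largest rises, Tlr9 holds the most matches, and Tlr3 had the smallest rise.
Tlr1 (chr5:64933509-64933808, minus strand): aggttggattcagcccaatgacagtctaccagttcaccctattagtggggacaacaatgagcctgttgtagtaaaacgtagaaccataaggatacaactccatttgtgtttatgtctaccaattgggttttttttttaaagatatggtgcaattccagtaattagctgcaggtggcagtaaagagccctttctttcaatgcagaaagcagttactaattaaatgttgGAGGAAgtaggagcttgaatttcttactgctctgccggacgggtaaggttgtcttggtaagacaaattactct
Tlr13 (chrX:106143025-106143324, plus strand): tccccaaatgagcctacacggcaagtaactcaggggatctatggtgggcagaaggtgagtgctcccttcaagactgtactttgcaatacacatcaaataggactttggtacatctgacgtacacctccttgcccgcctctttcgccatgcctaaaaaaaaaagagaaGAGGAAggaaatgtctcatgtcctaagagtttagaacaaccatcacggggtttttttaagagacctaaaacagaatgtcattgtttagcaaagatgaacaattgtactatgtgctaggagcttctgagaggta
Tlr9 (chr9:106222348-106222647, plus strand): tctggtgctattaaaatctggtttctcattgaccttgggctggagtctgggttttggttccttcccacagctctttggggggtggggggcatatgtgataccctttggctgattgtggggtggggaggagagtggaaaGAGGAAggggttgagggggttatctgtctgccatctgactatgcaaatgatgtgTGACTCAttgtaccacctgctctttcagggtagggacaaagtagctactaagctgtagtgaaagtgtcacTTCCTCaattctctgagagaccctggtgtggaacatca
Tlr3 (chr8:45410331-45410630, minus strand): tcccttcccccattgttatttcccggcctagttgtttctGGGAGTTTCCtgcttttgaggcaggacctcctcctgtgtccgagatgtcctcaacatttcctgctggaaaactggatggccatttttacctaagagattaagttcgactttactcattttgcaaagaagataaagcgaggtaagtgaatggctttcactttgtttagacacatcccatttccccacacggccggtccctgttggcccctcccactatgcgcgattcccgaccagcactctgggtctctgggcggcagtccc

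The PU.1 letters were found in 4 of the 9 windows, those of Tlr1, Tlr8, Tlr9 and Tlr13, and in 28.3% of all 32851 promoter windows of the same length. Counted from the start as 1, with -1 just before it, the match begins at -23 in the printed Tlr1 window and at -83 in Tlr13. The other Tlr1 window, which begins at base 64932650, held no match to any of the motifs. Tlr9 has matches at -112 and, on the other strand, at 13. The AP-1 letters were found in Tlr9 alone of the 7 genes (at -58), beside 7.81% of all windows, and the NF-kB consensus in Tlr3 alone (at -211), beside 0.411% of all windows. A consensus of interferon regulatory factors, with its GAAA repeat, was found in a window of Tlr6, with 2 overlapping matches, and in 3.44% of all windows. Matches of different motifs did not overlap. A match describes letters and is not a binding site. The Tlr2 window held none of these exact letters, and Tlr2 rose as well. Looser spellings of the motifs were not searched.

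Among the lipopeptide receptors, Tlr2, the partner that Tlr1 and Tlr6 share, rose with little spread. Its normalised read counts in sham were 159 (library 11), 167 (10), 191 (1), 197 (8) and 206 (5). In cPTAA they ran from 480 in library 7 through a median of 694 to 809 in library 2. Every cPTAA value was more than any sham value, by a wide gap. The means were 676 ± 109.8 (SD, n = 7) and 184 ± 19.7 (SD, n = 5), a log2 fold change of 1.86 ± 0.14 with an adjusted p of 2.71e-06. By p, Tlr2 took rank 15 of the 21415 tested genes, and its coefficient of variation was the lowest of the 10 genes in either group (16.2% in cPTAA and 10.7% in sham).

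Tlr1, which with Tlr2 binds triacylated lipopeptides, was at a few reads in some sham libraries. Its sham counts were 4.07 (library 8, 4 reads), 4.66 (11, 4 reads), 9.77 (10, 9 reads), 33.7 (1) and 39.0 (5). In cPTAA the lowest was 100.4 (library 7), the median 240.1 and the highest 349 (library 2). No sham library reached the lowest cPTAA library, and sham 1 and 5 stood above the other sham libraries. The ratio of the means was 12.6 (230.2 ± 82.2 against 18.2 ± 16.8), the log2 fold change 4.02 ± 0.51 and the adjusted p 6.45e-05. This rise took rank 67 among all tested genes by log2 fold change.

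Tlr6, which with Tlr2 binds diacylated lipopeptides, stayed lower. Sham counts of Tlr6 were 6.98 (library 11, 6 reads), 19.5 (10), 23.2 (1), 24.3 (5) and 31.6 (8). The cPTAA counts ran from 50.2 (library 7) through a median of 65.4 to 112 (library 2). The groups did not overlap, and the log2 fold change was 1.90 ± 0.35 (adjusted p 0.00116). Within a library, the count of Tlr1 was 0.129 to 1.60 times that of Tlr6 in sham and 2 to 5.26 times in cPTAA. The mean log2 ratio was 1.53 ± 0.47 in cPTAA (SD, n = 7) and -0.59 ± 1.35 in sham (SD, n = 5), a difference of 2.12. It had a two-sided exact permutation p of 0.001263, the smallest this design can give, and 0.003788 after adjustment over the 6 pairs of genes that were compared. Without sham 8, whose ratio was the lowest, the difference was 1.59 (exact test, adjusted p 0.006061). Tlr1 and Tlr6 are near copies over part of their length. They share 454 identical stretches of 50 bases, which is 13.6% of those in Tlr1 and 12.3% of those in Tlr6. Reads from there may not be assigned with certainty, and the size of any error in the counts was not tested.

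Tlr4 moved least of the 10 genes. Its sham counts were 401 (library 10), 483 (11), 493 (1), 519.5 (8) and 544 (5). The cPTAA counts ran from 357 (library 9) through a median of 678 to 829.8 (library 4). The groups overlapped, since cPTAA 9 lay below every sham library, cPTAA 6 and 7 lay among the sham values, and cPTAA 12, 2, 3 and 4 lay above all of them. The means were 628 ± 177 and 488 ± 54.1, and the log2 difference of 0.31 ± 0.20 had a 95% interval from -0.11 to 0.74 (adjusted p 0.281). cPTAA 6, 7 and 9 are the libraries with cardiomyocyte genes. Without them Tlr4 rose by 0.64 (adjusted p 0.001447), and without them and sham 8 by 0.66 ± 0.12 (adjusted p 0.001974). With sample weights in voom it rose by 0.50 (adjusted p 0.02365).

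Cd14, which binds lipopolysaccharide and passes it to Tlr4, was the most abundant of the 10 genes per length. Its sham counts were 220.3 (library 10), 269 (11), 318 (5), 330.0 (1) and 903 (8). In cPTAA the counts ran from 597 (library 7) through a median of 1171 to 1412 (library 6). Sham 8 lay above cPTAA 7, and the other 4 sham libraries lay below every cPTAA library. Mean counts were 1123 ± 268 and 408 ± 279.9, with a log2 fold change of 1.62 ± 0.30 (adjusted p 0.00120), and without sham 8 the change was 1.95 (adjusted p 3.133e-05). Sham 8 also held the airway epithelium genes, led by the club cell gene Scgb1a1 at 40496, and the lysozyme gene Lyz2 at 20798, where the other sham libraries had 2234 to 5095. Lyz2 is on the list of 11 macrophage markers, and of the other 10 the counts of Aif1 lay below those of the other sham libraries (30.6 against at least 32.6). The remaining 9, such as Cd68 (151), Adgre1 (272) and Csf1r (909), lay within their range. The part of these other cells in the Cd14 value of sham 8 was not tested.

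Within a library, Tlr4 was 2.40 to 3.03 times as high in count as Tlr2 in sham and 0.514 to 1.195 times in cPTAA. No cPTAA library came near the sham ratios. The mean log2 ratio was -0.14 ± 0.49 in cPTAA and 1.403 ± 0.12 in sham, a difference of -1.55 (two-sided exact permutation p 0.001263, the smallest possible, adjusted p 0.003788). The ratio of Cd14 to Tlr4 moved the other way. It was 0.549 to 0.669 in 4 sham libraries and 1.74 in sham 8, against 1.13 to 3.29 in cPTAA, a log2 difference of 1.302 (exact permutation p 0.0101, adjusted p 0.01515). Without cPTAA 6, 7 and 9 this difference was 1.07 and did not pass (exact test, adjusted p 0.05952). Leaving sham 8 out as well gave 1.39 (adjusted p 0.03429, exact test).

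Of the endosomal receptors, Tlr13, a sensor of bacterial ribosomal RNA that mice have and humans lack, rose furthest. Tlr13 counts in sham were 13.2 (library 8), 23.9 (10), 31.4 (11), 54.5 (5) and 100.2 (1). In cPTAA they ran from 307 (library 7) through a median of 472 to 953 (library 2). The lowest aneurysm was above the highest sham, and sham 1 stood above the rest of its group. The means were 559 ± 217 and 44.6 ± 34.5, a ratio of 12.5, with a log2 fold change of 3.85 ± 0.41 and an adjusted p of 1.54e-05. By log2 fold change Tlr13 took rank 82 of all tested genes.

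Tlr7 and Tlr8 are neighbouring genes for receptors of single-stranded RNA. Tlr7 counts in sham were 36.7 (library 8), 59.4 (11), 62.9 (10), 85.7 (5) and 143 (1), and in cPTAA they ran from 169.9 (library 7) through a median of 323 to 504 (library 12). The groups did not overlap, and Tlr7 rose by 2.19 ± 0.31 (adjusted p 0.000148). Tlr8 counts in sham were 36.1 (library 11), 40.1 (10), 40.7 (8), 67.5 (1) and 79.9 (5), and in cPTAA they ran from 75.9 (library 6) through a median of 226 to 446 (library 12). cPTAA 6 lay below sham 5, and cPTAA 6, 7 and 9 made a low cluster under the other 4 aneurysms. Tlr8 had the widest spread of the 10 genes in cPTAA, with a coefficient of variation of 64.0%, and it rose by 1.74 ± 0.41 (adjusted p 0.00612). Without cPTAA 6, 7 and 9 and sham 8 the rise was 2.36 ± 0.31 (adjusted p 0.0002164). The log2 ratio of Tlr8 to Tlr7 was -0.92 ± 0.60 in cPTAA and -0.47 ± 0.49 in sham, a difference of -0.45 that did not pass (exact permutation p 0.2109, adjusted p 0.2109). Without those 4 libraries it was 0.11 (exact test, adjusted p 0.6857).

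Tlr9, the receptor for unmethylated CpG DNA, was the lowest of the 10 genes in sham per length. Sham counts of Tlr9 were 3.26 (library 10, 3 reads), 3.49 (11, 3 reads), 12.2 (8), 16.6 (5) and 26.4 (1). In cPTAA the counts ran from 44.4 (library 7) through a median of 66.5 to 161 (library 2). All aneurysm values were above all sham values, and the sham values themselves differed by a factor of 8.10. The log2 fold change was 2.90 ± 0.49 (adjusted p 0.000602). Relative to Tlr7 the log2 ratio of Tlr9 was -2.07 ± 0.39 in cPTAA and -2.77 ± 1.02 in sham, a difference of 0.71 that did not pass (exact permutation p 0.1313, adjusted p 0.1576). Without sham 8 it was 1.03 and passed (exact test, adjusted p 0.02182), as it did without sham 8 and cPTAA 6, 7 and 9, at 1.17 (exact test, adjusted p 0.03429).

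Tlr3, the receptor for double-stranded RNA that signals through Ticam1, had the smallest rise that passed. Tlr3 counts in sham were 171 (library 10), 211 (11), 219 (8), 252 (1) and 261 (5). In cPTAA they ran from 219.6 (library 9) through a median of 318 to 530.1 (library 4). cPTAA 9 lay among the sham values and the other 6 aneurysms lay above all of them. The means were 374 ± 116 and 223 ± 35.7, and the log2 fold change was 0.70 ± 0.21 (adjusted p 0.0263). This call was lost when single libraries were left out, namely cPTAA 2, 3 or 4 or sham 10 or 11, with log2 fold changes of 0.61 to 0.68 and adjusted p-values of 0.05042 to 0.07964. The count of Tlr3 was 1.76 to 5.97 times that of Tlr7 in sham and 0.632 to 1.85 times in cPTAA. The mean log2 ratio was 0.15 ± 0.55 in cPTAA and 1.64 ± 0.63 in sham, a difference of -1.49 (exact permutation p 0.002525, adjusted p 0.005051).

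The list leaves out 3 mouse Toll-like receptors. Tlr11 and Tlr12, which bind profilin of protozoa, were low in count. They rose, with log2 fold changes of 2.16 ± 0.45 (adjusted p 0.00253) and 2.26 ± 0.47 (adjusted p 0.00257). Their mean counts in cPTAA were 20.46 ± 4.54 and 17.7 ± 8.39. With a score of the brown adipocyte markers as a covariate neither passed (adjusted p 0.1107 and 0.1158). Tlr5, the flagellin receptor, was at 65.1 ± 28.5 against 54.5 ± 12.4 and did not pass (log2 difference 0.18 ± 0.30, adjusted p 0.709).

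**Figure D2:**
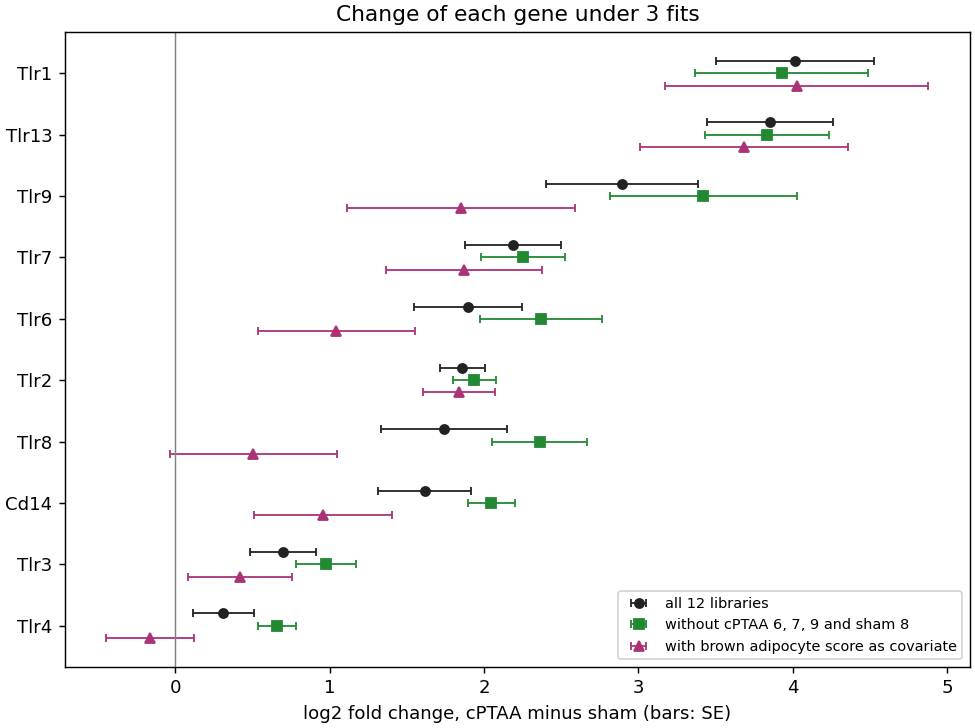
Log2 fold change, cPTAA minus sham, of each gene (horizontal axis, bars are SE) with all 12 libraries, without cPTAA 6, 7 and 9 and sham 8, and with a brown adipocyte score as covariate. Tlr1 lies near 4.02 with all libraries and Tlr4 at 0.31, and with the covariate Tlr4 is at -0.16.

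Levels were compared between genes as normalised read counts per kilobase of annotated exon. In sham, Cd14 was at 235 ± 162 per kilobase, Tlr4 at 87.9 ± 9.74, Tlr2 at 61.0 ± 6.54 and Tlr3 at 42.8 ± 6.86. These 4 genes did not overlap between neighbours over the 5 libraries. Below them came Tlr7 (19.0), Tlr8 (14.7), Tlr13 (10.4), Tlr6 (5.67), Tlr1 (5.45) and Tlr9 (3.56), whose neighbours overlapped, as did Tlr3 and Tlr7. In cPTAA the order was Cd14 (648 ± 155 per kilobase), Tlr2 (224 ± 36.4), Tlr13 (129.9 ± 50.5), Tlr4 (113 ± 31.9), Tlr7 (82.8), Tlr3 (71.8), Tlr1 (68.8), Tlr8 (56.6), Tlr9 (24.2) and Tlr6 (20.7). Only Cd14 stood clear of its neighbour there, since the ranges of Tlr2 and Tlr13 and of every later pair overlapped. Tlr13 moved from rank 7 to rank 3 and Tlr4 from rank 2 to rank 4. Of the summed level per kilobase of the 10 genes, Tlr4 made up 19.2% ± 4.34 in sham and 8.004% ± 2.28 in cPTAA, and Tlr13 made up 2.29% ± 1.59 and 8.88% ± 2.25. Cd14 made up 45.2% ± 13.2 and 44.97% ± 6.42 (SD over libraries).

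**Figure D3:**
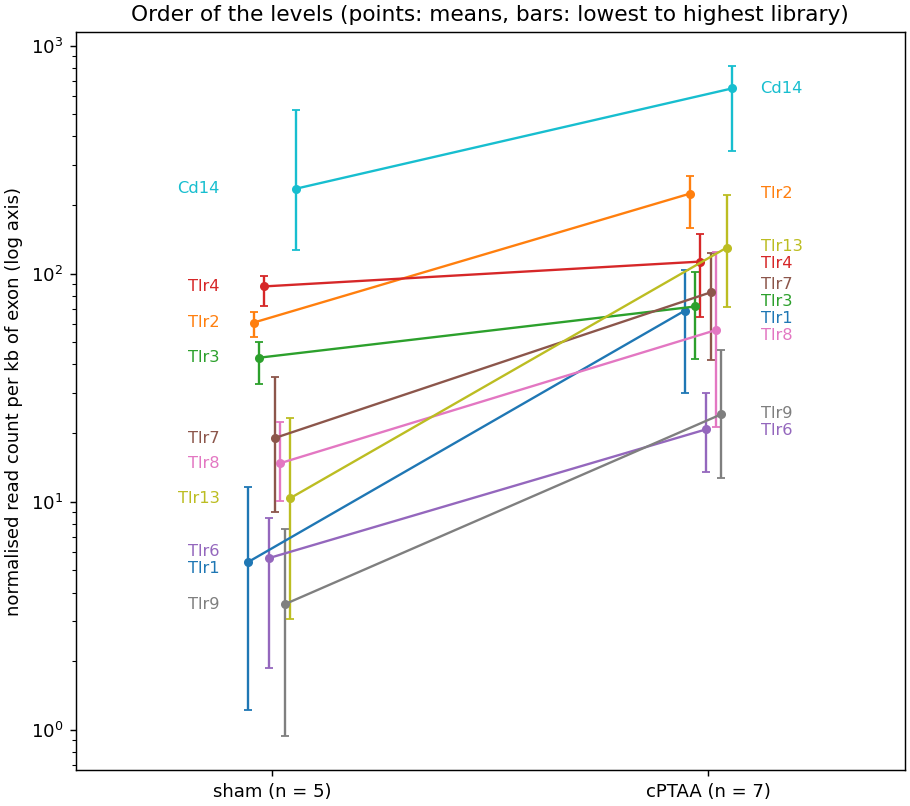
Normalised read count per kilobase of exon (log axis) of each gene in sham and cPTAA. Points are group means, bars run from the lowest to the highest library, and lines join the groups. Tlr13 crosses from rank 7 to rank 3 and Tlr4, at 87.9 in sham and 113 in cPTAA, from rank 2 to rank 4.

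The same libraries were high or low for several receptors. cPTAA 2 was the highest aneurysm for 5 of the 10 genes (Tlr1, Tlr2, Tlr6, Tlr9 and Tlr13), and cPTAA 7 the lowest for 7 (Tlr1, Tlr2, Tlr6, Tlr7, Tlr9, Tlr13 and Cd14). cPTAA 7 also had the lowest macrophage marker sum of the aneurysms, 36600, where the others had 55683 to 69945. Tlr3 and Tlr4 were lowest in cPTAA 9 and highest in cPTAA 4. After each group's mean was taken away, log2 values of Tlr3 and Tlr4 went together over the 12 libraries with a Pearson r of 0.91, those of Tlr7 and Tlr13 with 0.93 and those of Tlr1 and Tlr13 with 0.86. Cd14 went with Tlr2 at 0.55 and with Tlr13 at -0.22. These are descriptions over libraries that differ in cell makeup.

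Genes with the most similar pattern over the 12 libraries, measured in the same way among 15932 genes, differed between receptors. For Tlr3 they were Vwa5a (r = 0.96), Icam1 (0.95), an adhesion molecule for leukocytes, and Tpm3-rs7 (0.94). For Tlr4 they were Septin11 (0.96), Capza1-ps1 (0.95) and Rbpj (0.95), the transcription factor of Notch signalling. Tlr1 went with Pglyrp2 (r = 0.92) and Cxcl2 (0.89), and Tlr2 with Sting1, the adaptor of DNA sensing, Rpl7a-ps5 and Casp1 (0.90 to 0.92). Tlr7 was closest to Lair1 (0.93), with Tlr13 next and BE692007 after it (0.91). Tlr13 in turn was closest to Tlr7, then Il21r (0.92) and Gvin2 (0.91). Tlr9 went with Mpeg1, a pore-forming protein of macrophages, Tnfrsf1b and Mcm4 (0.93 to 0.95), and Tlr8 with Dennd1b, Mki67 and Nek4 (0.94 to 0.96). Tlr6 went with Gng2, Pmaip1 and Rad51ap1 (0.91 to 0.93), and Cd14 with Tmem176b, Tmem176a and Ankrd66 (0.94 to 0.95).

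Macrophage markers rose with the receptors. All 11 of the list rose, and their sums were 36600 to 69945 in cPTAA and 5912 to 25588 in sham. Sham 8 had the highest sum of its group, 20798 of it from Lyz2 alone, while its mean log2 value over the 11 markers (8.61) was below those of sham 1 (9.40), 5 (9.22) and 11 (8.67). Each gene was therefore also set against the mean log2 value of those 11 markers in the same library. On that scale Tlr1 was higher in cPTAA by 1.41, Tlr13 by 1.24 and Tlr9 by 0.29, with overlap between the groups for each, and the other 7 were lower. Tlr4 had a difference of -2.295 (0.14 ± 0.42 in sham and -2.16 ± 0.55 in cPTAA) and Tlr3 of -1.91, and for these the groups did not overlap. Tlr7, Tlr6, Tlr2 and Tlr8 had differences of -0.42, -0.71, -0.75 and -0.87, with overlap. Cd14 had a difference of -0.99. Its groups did not overlap but all but met, at -1.028 in the highest cPTAA library and -1.027 in the lowest sham library. Without sham 8 the differences of Tlr1, Tlr13 and Cd14 were 1.10, 0.95 and -0.61. These are descriptions with no test.

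**Figure D4:**
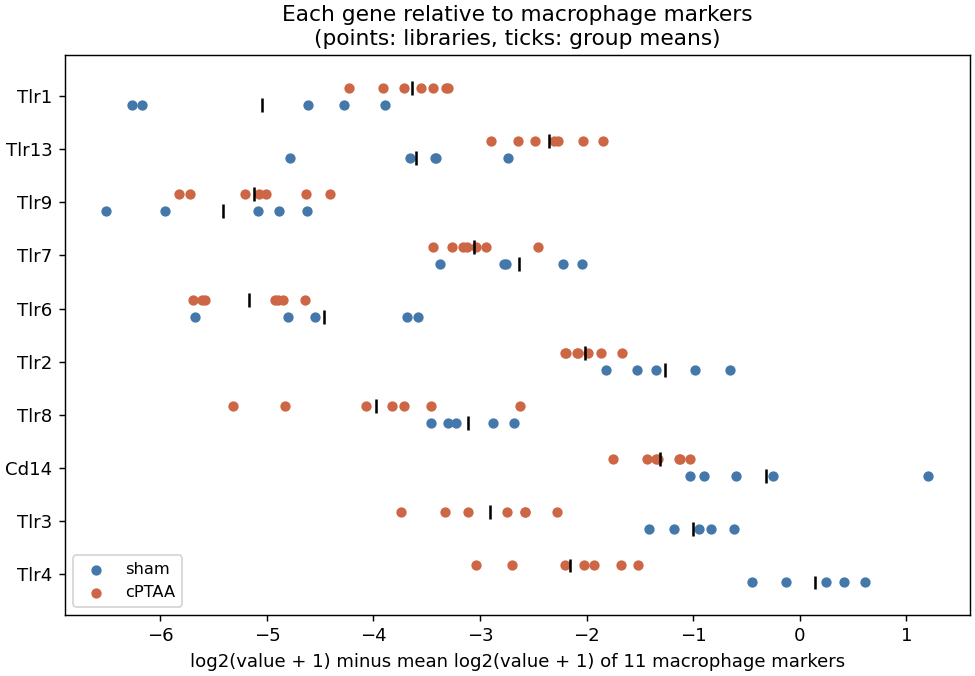
Log2 value of each gene minus the mean log2 value of 11 macrophage markers in the same library (horizontal axis), for 5 sham and 7 cPTAA libraries as points, with group means as ticks. Tlr1 and Tlr13 lie further right in cPTAA, by 1.41 and 1.24, and Tlr3 and Tlr4 lie further left with no overlap.

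Markers of other cell types moved to differing degrees, where 12.9% of all tested genes rose and 11.1% fell. B cell markers rose in 6 of 6 (sums 145 to 3252 against 16.3 to 108), T cell markers in 6 of 6 (312 to 1070 against 17.5 to 199), and plasmacytoid dendritic cell markers in 2 of 6, Spib and Ly6d (sums 85.9 to 5412 against 26.8 to 279). The highest of the last sums, in cPTAA 9, was mostly Cox6a2 (5288), which heart and skeletal muscle also express. Siglech and Ccr9 of that list did not pass (adjusted p 0.438 and 0.537). Of 5 tested neutrophil markers 1 rose (117.8 to 822 against 75.4 to 133), and Ly6g, Mpo and Camp were at 0 in 6 or more libraries. Endothelial markers fell in 3 of 6 (6369 to 11095 against 9743 to 15354), smooth muscle markers in 2 of 6, and fibroblast markers rose in 3 of 6 (48761 to 101469 against 22651 to 41006). The part of any of these cells in the receptor values was not tested. With the mean log2 value of the brown adipocyte markers as a covariate, a score which is lower in cPTAA (9.07 ± 1.25 against 11.6 ± 0.64), 4 of the 10 genes rose. They were Tlr1 (4.03 ± 0.85, adjusted p 0.01511), Tlr2 (1.84 ± 0.23, adjusted p 0.001951), Tlr7 (1.87 ± 0.50, adjusted p 0.03995) and Tlr13 (3.68 ± 0.67, adjusted p 0.007931). Tlr6 (1.04), Tlr8 (0.51), Tlr9 (1.85), Cd14 (0.96) and Tlr3 (0.42) did not pass, with adjusted p from 0.1223 to 0.5619. The covariate widened the median SE over all genes from 0.302 to 0.441, and 1019 of all tested genes then rose.

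Proteins that bind ligands for the receptors or carry them to the endosome mostly rose. Of 16 accessory genes 12 rose (75%, beside 12.9% of all tested genes) and 1 fell, with a median log2 fold change of 1.42. The smallest p-values were those of Ctss (3.45 ± 0.31, adjusted p 5.25e-06), a cathepsin that cleaves endosomal receptors, and Slc15a3 (3.45 ± 0.35, adjusted p 1.18e-05), an endosomal peptide transporter. Cd36, a scavenger receptor that works with Tlr2 and also takes up fatty acids, fell by 1.49 on the log2 scale (± 0.23, adjusted p 0.000249), from 23061 to 8224. Named for their role after the values were seen, Unc93b1, the chaperone of endosomal receptors, rose by 1.80 ± 0.19, and the Tlr4 partner Ly96 by 1.24 ± 0.28. The lipopolysaccharide carrier Lbp rose by 1.59 ± 0.26. Cd180, a Tlr4 homologue of B cells and myeloid cells, and its partner Ly86 rose by 3.21 ± 0.37 and 3.07 ± 0.32. With the brown adipocyte covariate Cd36 (-0.97, adjusted p 0.07104), Ly96 (adjusted p 0.09467) and Lbp (adjusted p 0.1169) did not pass. No difference of Ly96 or Lbp from Tlr4 was tested.

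Of the 6 adaptor genes 3 rose (50%, beside 12.9% of all tested genes) and 0 fell, also at an unadjusted p under 0.05. The median was 0.40. Myd88, used by all of these receptors but Tlr3, rose by 0.69 ± 0.15 (adjusted p 0.00418). Ticam2, which links Tlr4 to Ticam1, rose by 1.78 ± 0.29 (adjusted p 0.000419), and Pik3ap1, which links receptors to phosphoinositide kinase, by 2.79 ± 0.33 (adjusted p 3.59e-05). With the brown adipocyte covariate Ticam2 did not pass (adjusted p 0.1109), while Myd88 and Pik3ap1 did. Ticam1, the adaptor of Tlr3, was at 258 ± 40.9 against 252 ± 37.4 (log2 difference 0.03 ± 0.15, adjusted p 0.906).

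In the fit of all 12 libraries, the 19 kinases and ubiquitin ligases that relay the signal stayed near the background. They had 3 rises (15.8%, beside 12.9% of all tested genes), 2 falls and a median of 0.05. Irak4 (0.61, adjusted p 0.01999), Map3k8 (0.93, adjusted p 0.000712) and Ikbke (0.69, adjusted p 0.00789) rose. The ubiquitin ligase Peli2 fell by 1.06 on the log2 scale (adjusted p 0.000333) and the kinase Chuk fell by 0.35 (adjusted p 0.0420). Chuk did not pass without any one of cPTAA 2, 3, 6, 7 or 12 or of the 5 sham libraries, and Irak4 did not pass without sham 5 (adjusted p 0.05118). With all libraries, Chuk also did not pass by edgeR (adjusted p 0.07012), or by limma with TMM scaling (0.06589), library totals scaling (0.1961) or no filter (0.06802). Chuk passed in 5 alternatives and did not in 17. Without cPTAA 9 the kinase list had 5 rises, and 3156 of all 21133 genes then tested rose. Without cPTAA 6, 7 and 9 the list had 8 rises, where 3353 of all 20496 rose. Leaving sham 8 out as well gave 6, where 3481 of all 19734 rose. Sample weights in voom also gave 6, where 3648 of all 21415 rose. With the brown adipocyte covariate the list had 0 rises, where 1019 of all 21415 rose. Irak4 (adjusted p 0.3307), Map3k8 (0.07104) and Ikbke (0.2606) then did not pass.

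Among 11 transcription factors 5 rose (45.5%, beside 12.9% of all tested genes) and 0 fell, also at an unadjusted p under 0.05. The median was 0.63. Irf5 and Irf8, interferon regulatory factors of myeloid cells, rose most, by 2.44 ± 0.19 (adjusted p 3.08e-06) and 2.89 ± 0.29 (adjusted p 1.07e-05). The NF-kB genes Nfkb2, Relb and Nfkb1 rose by 0.80 (adjusted p 0.00765), 0.68 (adjusted p 0.00566) and 0.50 (adjusted p 0.0182). Nfkb1 did not pass without sham 1 (adjusted p 0.0544). With the brown adipocyte covariate Nfkb2 (adjusted p 0.1996), Relb (0.08935) and Nfkb1 (0.5348) did not pass, while Irf5 and Irf8 did. Of 13 negative regulators 3 rose (23.1%, beside 12.9% of all tested genes) and 0 fell, also at an unadjusted p under 0.05. The median was 0.34. Tnfaip3, a deubiquitinase that limits NF-kB, rose by 1.09 ± 0.21 (adjusted p 0.00169), Tnip1 by 0.34 (adjusted p 0.0314) and Tnip2 by 0.33 (adjusted p 0.0469). Without cPTAA 2 or without sham 5, 8, 10 or 11 only Tnfaip3 of these passed, and with the brown adipocyte covariate none did (Tnfaip3 at 0.52, adjusted p 0.2578). The list had more rises in other alternatives. Sample weights in voom gave 7, where 3648 of all 21415 genes rose. Library totals scaling gave 5, where 3351 of all 21415 rose. Leaving out cPTAA 6, 7 and 9 gave 5, where 3353 of all 20496 rose.

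Genes that receptor signalling is known to induce mostly rose. Of 21 in the list 20 were in the table and tested. Of these, 16 rose (80%, beside 12.9% of all tested genes) and 0 fell, also at an unadjusted p under 0.05. The median was 2.60. The chemokine genes Ccl2 and Cxcl2 had the smallest p-values, with rises of 4.06 ± 0.46 (adjusted p 2.59e-05) and 3.75 ± 0.46 (adjusted p 4.75e-05). Cxcl2 was at 34.7 ± 10.2 against 2.03 ± 1.96. For the adaptors, transcription factors, negative regulators and induced genes, falls also numbered 0 by edgeR and by DESeq2. Over the 6 pathway lists from accessory proteins to induced genes, 42 of 85 tested genes rose (49.4%, beside 12.9% of all tested genes) and 3 fell, and the median was 0.63 beside -0.05. With the brown adipocyte covariate 25 rose, namely 14 induced genes, 7 accessory genes, 2 adaptors and 2 transcription factors. Over all 21415 tested genes 1019 then rose, in place of 2754. All 11 macrophage markers rose without the covariate and 9 with it, and the part of macrophages in these counts was not tested.

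Of 10 genes for molecules of the body that have been reported as receptor ligands, 4 rose and 1 fell (median 0.14). These 4 were 40% of the list, where 12.9% of all tested genes rose and 11.1% fell. The matrix genes Fn1 (2.47 ± 0.34, adjusted p 0.000123), Tnc (1.89 ± 0.34, adjusted p 0.00103), Bgn (1.23 ± 0.30, adjusted p 0.00763) and Dcn (0.63 ± 0.21, adjusted p 0.0436) rose. The mitochondrial chaperone gene Hspd1 fell by 1.25 on the log2 scale (adjusted p 0.00108). The alarmin genes S100a8 and S100a9 were at 77.6 ± 71.1 against 49.8 ± 29.1 and 107 ± 115 against 76.3 ± 35.7, and neither passed (adjusted p 0.905 and 0.855). Dcn did not pass without any one of several libraries, with adjusted p up to 0.1374. With the brown adipocyte covariate 0 of the 10 rose, with Fn1 nearest to passing (1.65, adjusted p 0.05104), and Hspd1 was at -0.28 (adjusted p 0.3377).

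**Figure D5:**
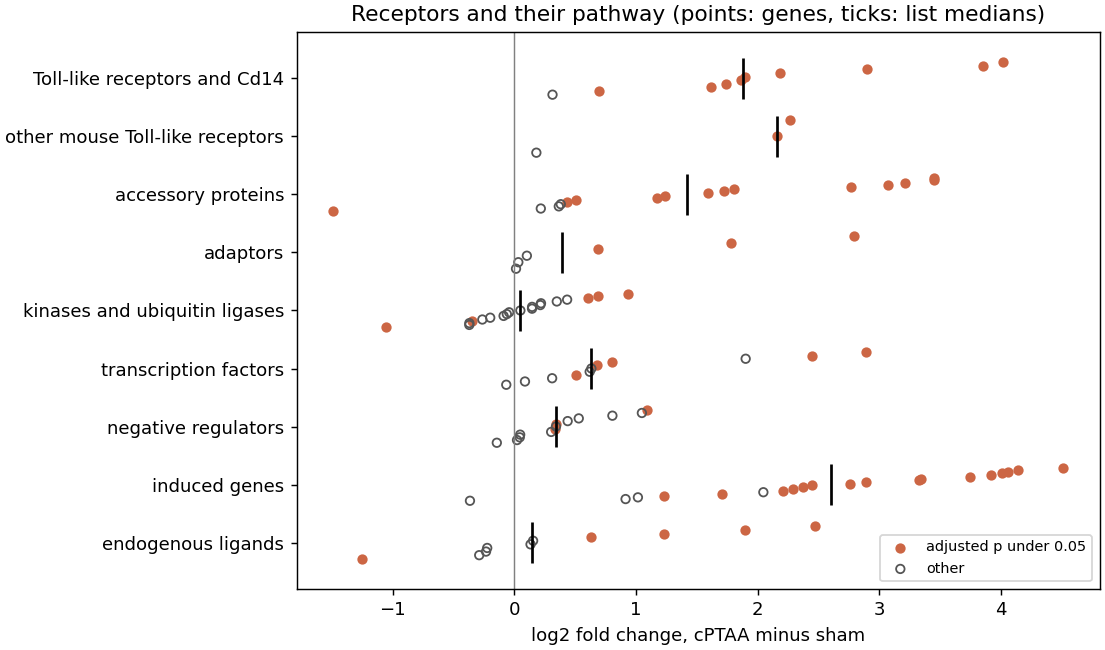
Log2 fold change, cPTAA minus sham (horizontal axis), of every tested gene of the receptor list and of its pathway lists. Filled points passed an adjusted p of 0.05, open points did not, and ticks are list medians, from 1.88 for the receptors and Cd14 and 2.60 for induced genes to 0.05 for kinases and ubiquitin ligases.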

How the data were processed

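Groups and library numbers came from the sample titles. Per the labels' protocols, RNA of snap-frozen tissue was captured with oligo-dT and reverse transcribed from random hexamers. The submitters' processing notes name the build GRCm39, the aligner HISAT2 2.0.5, the counter featureCounts 1.5.0-p3 and StringTie. How strand was treated and how reads were scaled is not given in the sources used here. The deposited signal is a normalised read count per gene. Checked on the values, it is whole reads times 1 factor per library (100% of the values whole within 0.02 reads), so reads were recovered for the count tests. Every listed gene has at least 2 reads over the 12 libraries.

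Log2(value + 1) was fitted with limma-trend (limma 3.58.1 in R 4.3.3), two-sided, for the 21415 genes with a value of at least 1 in at least 5 libraries. P-values were adjusted by Benjamini-Hochberg over all of them, with a threshold of 0.05. Fold changes on this scale understate the change of low genes. The log2 ratios of 6 gene pairs within a library were compared by exact permutation over all 792 assignments of the libraries, adjusted over the pairs. Alternatives were TMM and library totals scaling, edgeR 4.0.16, DESeq2 1.42.0, voom with sample weights, a pseudocount of 0.1, no filter, a brown adipocyte score as covariate and leaving out each library. Leaving out cPTAA 6, 7 and 9, with or without sham 8, was added after seeing the data. The fit was tested on simulated data.

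Exon lengths came from the union of exons in GENCODE M21, whose build is not that of the processing notes. The genes and all lists were chosen with earlier results of these data known. Named were all 10 genes, the 2 genes of each pathway list with the smallest p in each direction, every gene in a direction where 5 or fewer passed, and for each of the 10 the 3 genes of highest within-group Pearson r among those with a mean of at least 10. Of these similar genes, 1 is not reported here. Only Tlr3 overlaps another annotated gene, Gm45542 on the opposite strand, which the table does not list.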

Additional observations from a re-analysis of the deposited data

Results flagged for a closer look

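Among the 20 sets of values (10 genes in each of the 2 groups), 1 held a library far from the rest of its group. This was Cd14 in sham 8, at 902.6 normalised reads, where the other sham libraries had 220.3 to 330.0. Its gap to the nearest library was 0.839 of the group's range. The threshold that this gap passed is passed by chance in about 1 of 20 groups. Sham 8 was also the highest library for 8 of 8 airway and lung epithelium genes, and their part in this value was not tested. With sham 8 left out, the log2 fold change of Cd14 was 1.95, against 1.62 with it.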

How the results depend on the processing

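With a brown adipocyte score as covariate, 4 of the 10 genes rose in place of 9, and of the pathway genes 25 rose in place of 42 and 1 fell in place of 3. Over all 21415 tested genes, 1019 rose in place of 2754 and 631 fell in place of 2374. The score differs between the groups and the covariate widened the errors. Under it Tlr4 had the opposite sign, at -0.16 (adjusted p 0.7406), as had Tlr5, at -0.75 (adjusted p 0.2154). Over all alternatives the log2 fold change of Tlr4 ran from -0.16 to 0.66, and that of Tlr3 from 0.42 to 0.98. Tlr1, Tlr2, Tlr7 and Tlr13 passed in all 22 alternatives. Library totals scaling moved the median of all genes from -0.05 to 0.06.

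Of the log2 ratios, that of Tlr9 to Tlr7 ran from 0.43 to 1.03 when single libraries were left out and was 1.17 without cPTAA 6, 7 and 9 and sham 8, where it passed. Tlr8 to Tlr7 was 0.11 there, opposite in sign to the value over all libraries, and Cd14 to Tlr4 was 1.07 without cPTAA 6, 7 and 9, where it did not pass. The other 3 ratios passed in every alternative run. Leaving out single libraries took Ticam1, which was near no change, from below 0 to 0.11, with -0.0347 without sham 11, -0.01 without cPTAA 3 and -0.00203 without cPTAA 9. The cause of these shifts was not tested. Sham counts of Tlr1 and Tlr9 rest on 3 to 4 reads in some libraries, which limits their fold changes. No paired analysis was possible because the groups share no library numbers.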
